A study of Mus musculus with 8 samples.

Results

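Described here are 7 genes of the tumour necrosis factor and lymphotoxin system in mouse colon: the ligand genes Tnf, Lta, Ltb, Tnfsf8 and Tnfsf11 and the receptor genes Ltbr and Tnfrsf1a. They were chosen by name, with earlier results of these data known, from 31053 gene rows of 8 single-cell RNA tables, and all 7 were found there. The cells were colonic lamina propria cells enriched for CD4+ T cells from C57BL/6 mice aged 10 to 12 weeks, kept free of specific pathogens on normal diet. The 4 groups were untreated wildtype, untreated mutant, dextran sulfate sodium (DSS) treated wildtype and DSS-treated mutant, with 2 libraries each. DSS, an agent that injures the colon lining, was given at 2% in drinking water for 7 days and was followed by 3 days of plain water, and all mice were harvested on day 10. The mutant carries a serine-to-alanine change in RORgt, the transcription factor of Th17 cells and group 3 innate lymphoid cells. The series text writes the allele as RORgtS182A and the sample titles as S203A with the suffix KI, and the allele is called the mutant below. The series text calls the 2 libraries of a group independent biological replicates, and whether a library pools animals is not given in the sources used here.

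The enrichment was partial. After filtering, 98728 of 100673 barcodes were kept, and clustering without the members placed 60225 of them (61%) in the T class. The innate lymphoid class held 1090 barcodes (105 to 166 per library), the myeloid class 13606 and the stromal class 15011 (531 to 3089 per library). The innate lymphoid class was a single cluster led by genes of group 3 innate lymphoid cells (ILC3). It was close in size to the ILC3-like type of the finer clustering (1098 barcodes), so its levels are not those of innate lymphoid cells in general. Each class carried its own markers: 6 T markers summed to 2282 CPM (counts of a gene scaled to all UMIs of a class in a library) in the T class, 8 markers of group 3 innate lymphoid cells to 10074 CPM in the innate lymphoid class, 10 macrophage or monocyte markers to 10951 CPM in the myeloid class and 6 fibroblast markers to 11406 CPM in the stromal class. A second lineage was measurable in each: the same 6 T markers summed to 757 CPM in innate lymphoid, 332 CPM in myeloid and 324 CPM in stromal barcodes, each marker at 5 CPM or more. Libraries held 34497509 to 46960005 unique molecular identifiers (UMIs), and 1134 of 97584 barcode sequences occurred in more than 1 library, none with equal UMI totals. The first untreated mutant library stood apart in the heat-shock genes Hspa1a and Hspa1b, which summed to 2452 CPM in its T class against 109 to 667 CPM in the other 7.

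TNF and the lymphotoxins are ligands made mainly by immune cells. TNF and soluble lymphotoxin alpha act through TNF receptor 1, the product of Tnfrsf1a, which can switch on NF-kB or cell death. Lymphotoxin alpha and beta chains together form a membrane complex that binds the lymphotoxin beta receptor on stromal and myeloid cells, the signal by which group 3 innate lymphoid cells and their fetal relatives drive lymphoid tissue formation. Tnfsf8 encodes CD30 ligand, whose receptor CD30 is found on activated lymphocytes, and Tnfsf11 encodes RANKL, known for driving osteoclasts and, in the gut, the M cells that sample antigen over lymphoid follicles.

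On GRCm38, 3 of the genes lie side by side on chromosome 17: Ltb at chr17:35194439-35196320 on the plus strand, Tnf at chr17:35199381-35202007 and Lta at chr17:35203165-35205351, both on the minus strand. Only 3060 bases separate Ltb from Tnf and 1157 separate Tnf from Lta. The receptors are neighbours as well, Ltbr at chr6:125306571-125313885 on the minus strand and Tnfrsf1a at chr6:125349362-125362484 on the plus strand, 35476 bases apart. Tnfsf8 (chr4:63831308-63861347) and Tnfsf11 (chr14:78277445-78308043), both on the minus strand, have no other member nearby. The upstream sequences below belong to 4 of the 5 members that passed a test after DSS in at least 1 class. They come from RefSeq (GRCm38.p6), are written 5′ to 3′ on the gene's strand and stop before the annotated transcript. Capitals mark a match to the NF-kB letters, GGG and TTCC with 3 bases of any kind between them, read on either strand.
Tnf, chr17:35202008-35202257: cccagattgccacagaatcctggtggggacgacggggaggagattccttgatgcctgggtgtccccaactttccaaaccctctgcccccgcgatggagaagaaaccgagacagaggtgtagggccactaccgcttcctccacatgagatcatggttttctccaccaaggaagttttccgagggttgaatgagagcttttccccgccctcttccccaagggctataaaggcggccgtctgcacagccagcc
Ltb, chr17:35194257-35194438: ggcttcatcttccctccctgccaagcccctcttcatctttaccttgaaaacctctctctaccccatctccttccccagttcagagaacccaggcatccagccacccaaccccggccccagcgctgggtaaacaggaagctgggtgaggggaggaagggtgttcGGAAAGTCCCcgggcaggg
Tnfsf11, chr14:78308044-78308293: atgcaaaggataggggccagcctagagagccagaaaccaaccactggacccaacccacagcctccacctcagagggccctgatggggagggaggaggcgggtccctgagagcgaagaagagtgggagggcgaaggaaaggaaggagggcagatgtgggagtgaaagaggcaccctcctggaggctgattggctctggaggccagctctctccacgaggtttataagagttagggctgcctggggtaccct
Ltbr, chr6:125313886-125314135: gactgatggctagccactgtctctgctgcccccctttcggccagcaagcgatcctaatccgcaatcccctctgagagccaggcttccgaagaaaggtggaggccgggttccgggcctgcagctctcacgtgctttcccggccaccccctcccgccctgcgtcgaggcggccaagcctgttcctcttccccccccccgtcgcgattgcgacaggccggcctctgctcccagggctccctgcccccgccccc

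Among the 6 members with such a window, Ltb alone held the NF-kB letters, GGAAAGTCCC on the minus strand at position -87 from the RefSeq start. The letters occur in 1527 of 32851 upstream windows of 250 bases (4.65%), on either strand. The ROR element letters AGGTCA occur on either strand in 4607 of those windows (14%) and in none of the 6. The Ltb and Tnfsf8 windows are shorter, 182 and 187 bases, because the rest overlaps the annotated transcript, and the Tnfrsf1a window lies wholly inside one. A match is a description of letters only.

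Tnf was measured mostly in myeloid and T barcodes. Of its 8074 UMIs, 44.3% were myeloid, 40.4% T, 11.1% stromal and 1.55% innate lymphoid. Its level over 8 libraries was 61.4 ± 9.1 CPM (SD) in myeloid, 34.3 ± 8.8 CPM in innate lymphoid, 22.8 ± 6.7 CPM in T and 9.63 ± 2.00 CPM in stromal barcodes. Among the 26 finer types, neutrophil-like barcodes were highest at 375 ± 364 CPM, with 11 to 73 barcodes per library and a range from 110 to 1149 CPM. Monocyte-like (76.7 ± 31.9 CPM) and macrophage-like barcodes (74.4 ± 9.1 CPM) came next and did not differ beyond their spread. Of the T types, Th17-like barcodes led at 36.8 ± 3.5 CPM, Th1-like followed at 29.8 ± 6.7 CPM, and naive-like barcodes held 8.55 ± 2.94 CPM. Within the stroma, fibroblasts labelled Igfbp5-led stood at 32.1 ± 13.8 CPM against 5.61 ± 1.73 CPM in blood endothelial-like barcodes. The Igfbp5-led libraries ranged from 10.04 to 52.3 CPM, with 10 to 224 barcodes each. The stromal class carried 230 to 1178 CPM of macrophage or monocyte markers, and its Tnf was not set beside myeloid RNA. Fibroblast types are labelled by a leading gene that need not rank highest. Dcn and Col3a1 ranked above Igfbp5 in the Igfbp5-led type, and Igfbp5 above Ereg in the Ereg-led type.

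Lta was the rarest ligand by UMIs, 1034 in all, and its highest level was in innate lymphoid barcodes at 32.04 ± 20.7 CPM. T barcodes held 4.72 ± 1.24 CPM, and myeloid (1.17 ± 0.48 CPM) and stromal barcodes (0.87 ± 0.56 CPM) lay near each other. B cell-like barcodes at 6.05 ± 2.07 CPM were within the range of the T types, 2.06 to 6.19 CPM. Ltb, the membrane anchor of the lymphotoxin complex, was highest among the 4 classes in T and innate lymphoid barcodes at 324 ± 58 and 310 ± 116 CPM, which overlap. Regulatory T types led: Treg-like barcodes with Gzmb among their leading genes held 491 ± 105 CPM and those led by Il1rl1 382 ± 79 CPM, with Th17-like at 329 ± 40 CPM. Ltb also reached 238 ± 43 CPM in B cell-like barcodes, against 15.9 ± 4.5 CPM in plasma cell-like ones. Neutrophil-like barcodes held 173 ± 76 CPM of Ltb from 68 UMIs, with 11 to 73 barcodes per library, and were not set beside T marker RNA.

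Tnfsf8 had the most UMIs of the 7, 90005, of which 84.2% were in the T class. It reached 516 ± 106 CPM in T and 399 ± 116 CPM in innate lymphoid barcodes. By mean, Tfh-like barcodes were highest at 924 ± 129 CPM and ILC2-like ones (264 barcodes) next at 811 ± 404 CPM. Th17-like barcodes followed at 721 ± 111 CPM and Th1-like at 583 ± 101 CPM. ILC2-like group means ran from 335 CPM in untreated mutant to 1177 CPM in untreated wildtype mice, so the place of that type is not settled. The Treg types were low among T types, at 236 ± 48 CPM in Il1rl1-led and 168 ± 52 CPM in Gzmb-led barcodes, the opposite order to Ltb. Tnfsf11 was set apart by the innate lymphoid class, 675 ± 104 CPM against 98.6 ± 19.3 CPM in T, 33.02 ± 11.1 CPM in stromal and 22.3 ± 7.3 CPM in myeloid barcodes. Its lowest innate lymphoid library, 513 CPM, lay above its highest T library, 137 CPM. ILC2-like barcodes of the finer clustering held 226 ± 157 CPM. Among T types Tnfsf11 was highest in Th17-like (185 ± 38 CPM) and Th1-like barcodes (142 ± 31 CPM), whose spreads overlap, and lowest in naive-like ones (18.8 ± 5.5 CPM).

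The receptors were highest in stromal and myeloid barcodes. Ltbr was at 59.4 ± 9.3 CPM in stromal and 37.6 ± 6.6 CPM in myeloid barcodes, against 2.67 ± 3.58 CPM (9 UMIs) in innate lymphoid and 0.70 ± 0.60 CPM in T barcodes, and 65.7% of its 7761 UMIs were stromal. Ogn-led fibroblasts held most, 84.7 ± 26.6 CPM, and smooth muscle-like (63.7 ± 15.4 CPM) and blood endothelial-like barcodes (63.2 ± 14.04 CPM) could not be ordered. Macrophage-like barcodes at 47.6 ± 5.8 CPM stood above dendritic-like barcodes at 11.6 ± 3.0 CPM. Tnfrsf1a was broader: 157 ± 26 CPM in stromal and 146 ± 8 CPM in myeloid barcodes, which overlap, and 37.8 ± 13.3 CPM in innate lymphoid and 35.2 ± 3.5 CPM in T barcodes. Blood endothelial-like barcodes had 217 ± 39 CPM, Th17-like barcodes led the T types at 56.2 ± 8.3 CPM, and B cell-like (7.25 ± 5.66 CPM) and plasma cell-like barcodes (2.81 ± 1.30 CPM) were lowest.

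**Figure D1:**
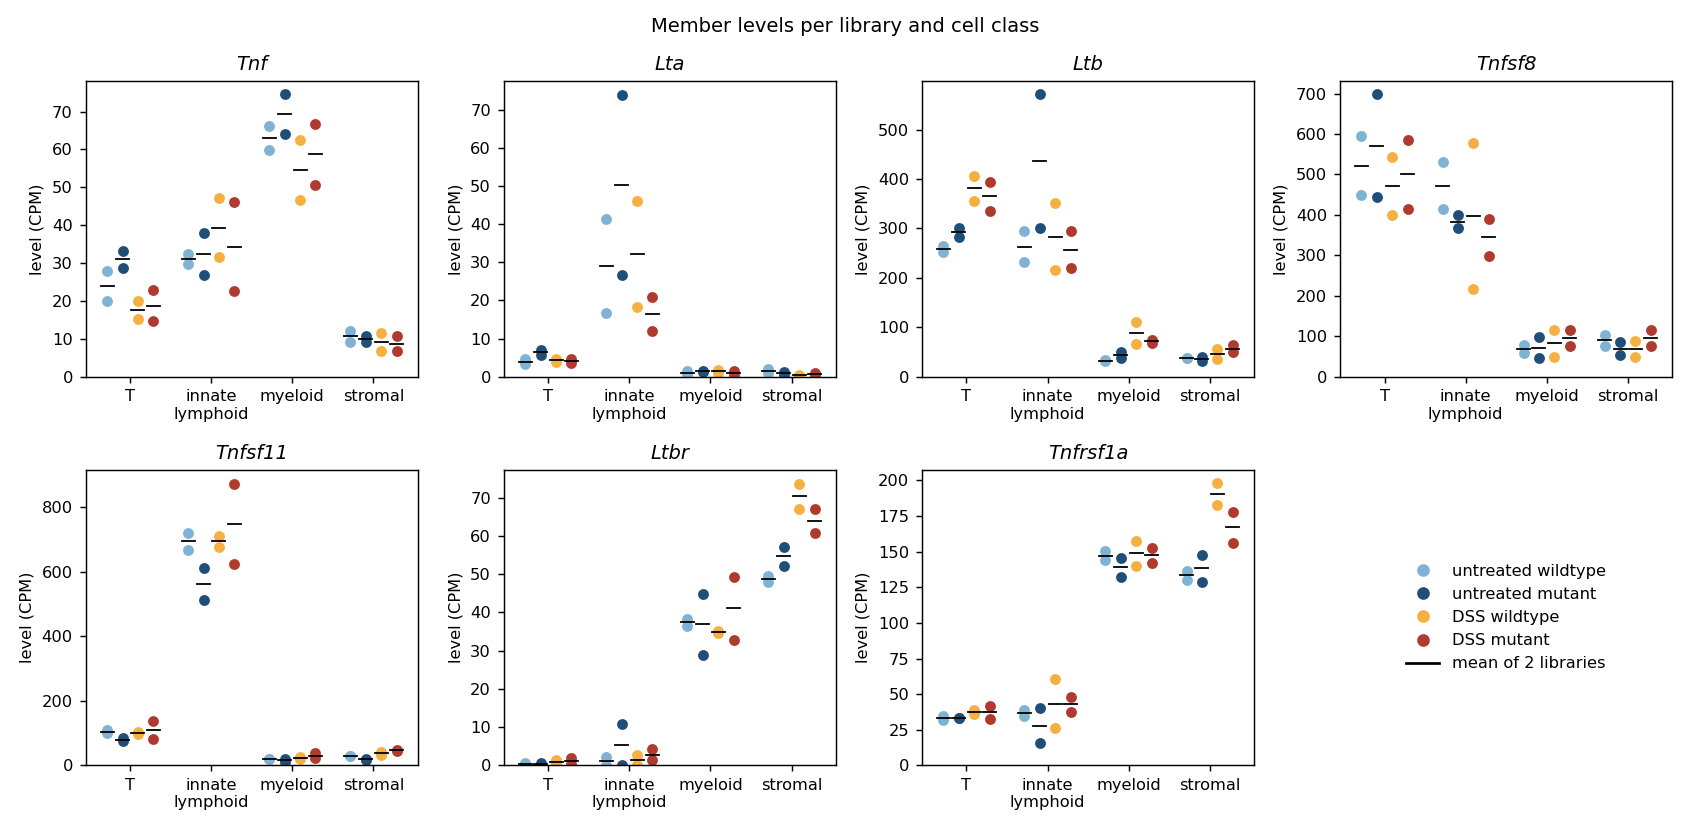
Level of each member in CPM (vertical axes, from 0) in the T, innate lymphoid, myeloid and stromal classes; each point is 1 library, coloured by group, and each line is the mean of 2 libraries. Tnfsf11 peaks in innate lymphoid barcodes at 513 to 873 CPM, and Ltbr and Tnfrsf1a are high in myeloid and stromal barcodes.

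**Figure D2:**
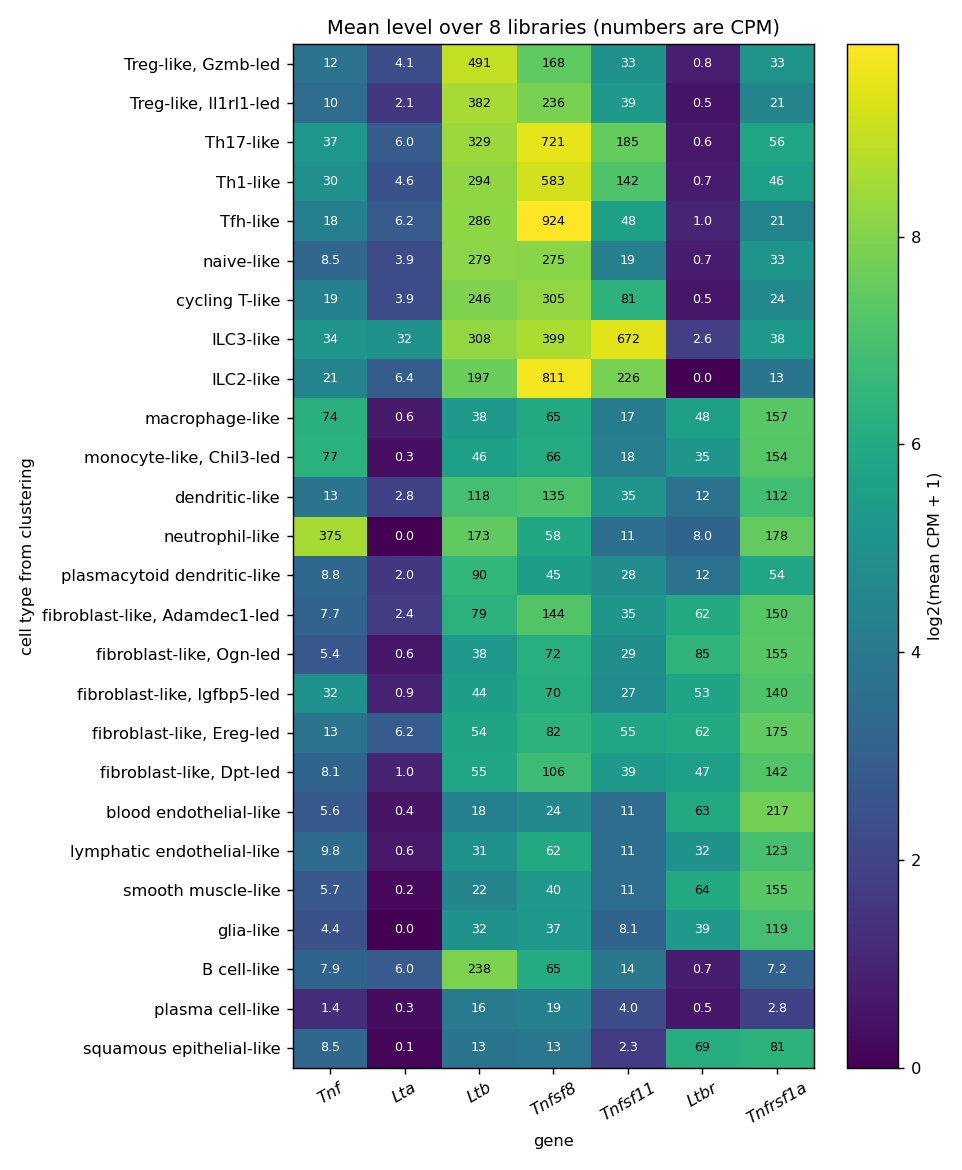
Mean level over the libraries for each member (columns) in each cell type from clustering (rows), with the CPM printed in the cell and the colour on a log2(CPM + 1) scale. Ltb is highest in Gzmb-led Treg-like barcodes (491 CPM), Tnfsf8 in Tfh-like (924 CPM), Tnfsf11 in ILC3-like (673 CPM) and Ltbr in Ogn-led fibroblast-like barcodes (84.7 CPM).

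Shares of barcodes with a UMI, once barcodes were thinned to 1000 UMIs, gave the same order as CPM for the populations set side by side in this paragraph. Not every order held: ILC2-like barcodes, next to highest in Tnfsf8 by mean CPM, had a thinned share of 31.2%, below Th1-like ones at 35.1%. Barcodes with fewer than 1000 UMIs were left out of the thinned shares but counted in the unthinned ones. Tnfsf11 was found in 40.6% of thinned innate lymphoid barcodes (64.2% unthinned) and 7.73% of T barcodes (14.8% unthinned), against 0.274% of plasma cell-like barcodes (2.26% unthinned). Tnf was found in 5.83% of myeloid (16.3% unthinned) and 2.33% of T barcodes (4.70% unthinned), against 0.0539% of plasma cell-like ones (0.923% unthinned). Median depths per library were 1660 to 2435 UMIs in T, 2363.5 to 3039.5 in innate lymphoid, 2506 to 5220 in myeloid and 6513 to 11381.5 in plasma cell-like barcodes. Tnfsf8 reached 1.64% of thinned plasma cell-like barcodes, the highest of the 7 there, against 31.9% of T barcodes (46.0% unthinned, and 6.17% of plasma cell-like ones).

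The ligands found at low level in myeloid and stromal barcodes were set beside the T marker RNA in the same barcodes. For each library, the level implied by T RNA was taken as the T class level of the gene times the summed T markers in the other class over those in the T class. Stromal Ltb was 32.3 to 63.7 CPM against an implied 29.4 to 66.9 CPM and exceeded it in 3 of 8 libraries. Myeloid Ltb exceeded the implied level in 7 of 8 libraries, by at most 11.9 CPM. Tnfsf8 was above it in 5 of 8 libraries in myeloid and 7 of 8 in stromal barcodes, with differences from -18.4 to 15.5 CPM. Stromal Lta was above it in 4 of 8 libraries and myeloid Lta in 7 of 8, at levels of at most 1.95 CPM. Innate lymphoid Tnfsf11 was 513 to 873 CPM against an implied 18.2 to 50.1 CPM, innate lymphoid Lta 12.0 to 73.9 CPM against 0.88 to 1.67 CPM, and myeloid Tnf 46.6 to 74.7 CPM against 2.27 to 4.93 CPM. Stromal Tnfsf11, at 17.1 to 48.4 CPM, was above the implied 7.41 to 23.1 CPM in each of the 8 libraries, as was myeloid Tnfsf11 at 11.95 to 37.1 CPM against 6.425 to 24.5 CPM.

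**Figure D3:**
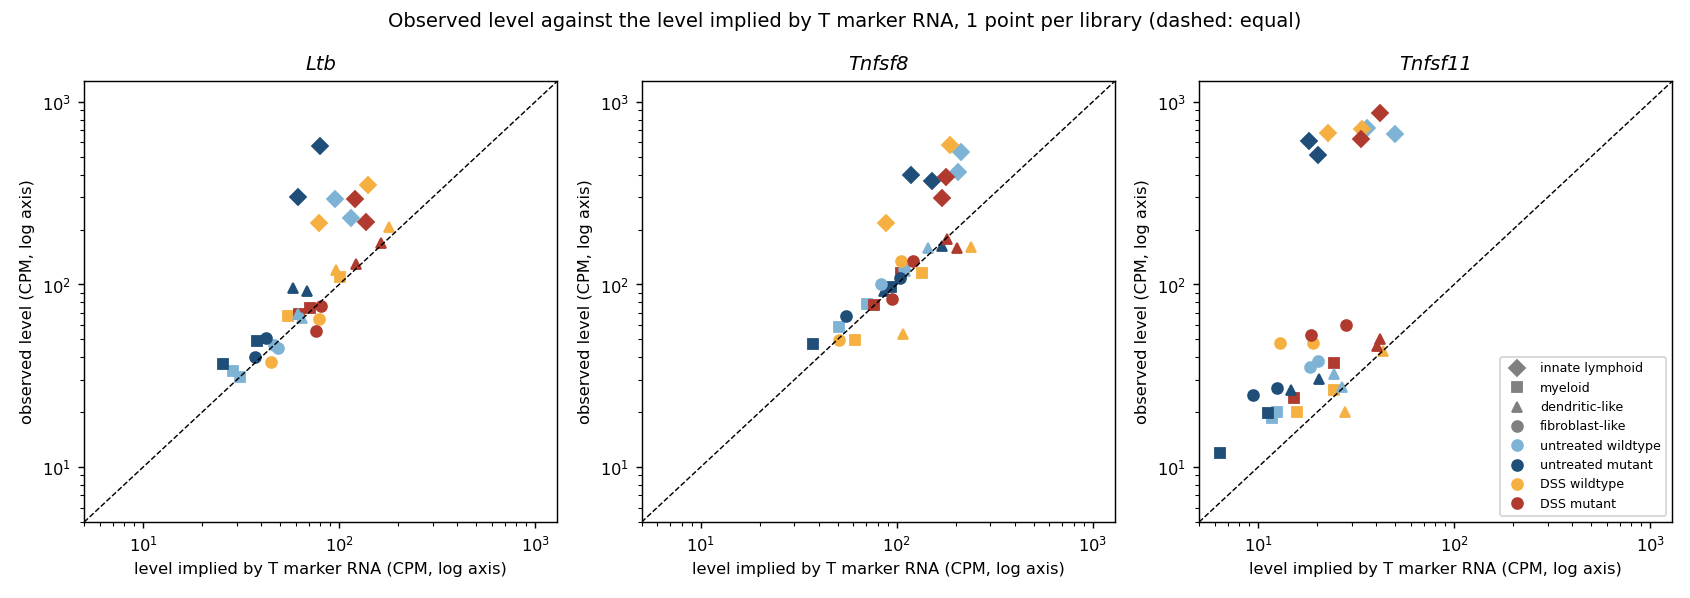
Observed level (vertical, log axis, CPM) against the level implied by T marker RNA (horizontal, log axis, CPM) for Ltb, Tnfsf8 and Tnfsf11; each point is 1 library, shape gives the cell population and colour the group, and the dashed line marks equal levels. Ltb lies above the line in 7 of 8 myeloid, 8 of 8 dendritic-like and 2 of 8 fibroblast-like libraries, Tnfsf8 in 5, 3 and 6 of 8 in that order, and Tnfsf11 of fibroblast-like barcodes lies above it in 8 of 8 libraries.

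DSS was compared with no treatment over both genotypes, 4 libraries against 4, with edgeR on UMIs summed per library and class. In the T class 2 of 7 members passed an adjusted p of 0.05, Ltb higher and Tnf lower, where 23.2% of all 12664 genes tested did. In the stromal class 4 of 7 passed, all higher after DSS (Tnfsf11, Ltbr, Tnfrsf1a and Ltb), against 14.1% of genes. In the myeloid class 1 of 6 passed, Ltb, against 22.1% of genes, and Lta was too low to test there. In the innate lymphoid class edgeR and DESeq2 each called 0 of 6 against edgeR's 2.46% of genes, with 1 member at an unadjusted p under 0.05, and Ltbr was too low to test. Levels here are per UMI of a class, so fewer RNA molecules of a gene per cell and fewer expressing cells in the class cannot be told apart.

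Each wildtype library has a mutant library with a neighbouring title number, and such pairs deviated together from their group means in T, myeloid and stromal barcodes. With the UMIs of each pair summed, 2 DSS sums against 2 untreated ones, edgeR called 0 of 7 members in the T class, 0 of 6 in the innate lymphoid, 1 of 7 in the myeloid (Ltb) and 1 of 7 in the stromal class (Tnfsf11), with 3, 2, 3 and 5 at an unadjusted p under 0.05. Limma with the pair as a random block called 2, 0, 1 and 1, and limma without a block 2, 0, 1 and 4. Member calls that these pair sums or the random block ended are named beside each result, and no label says what the title numbers mean.

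**Figure D4:**
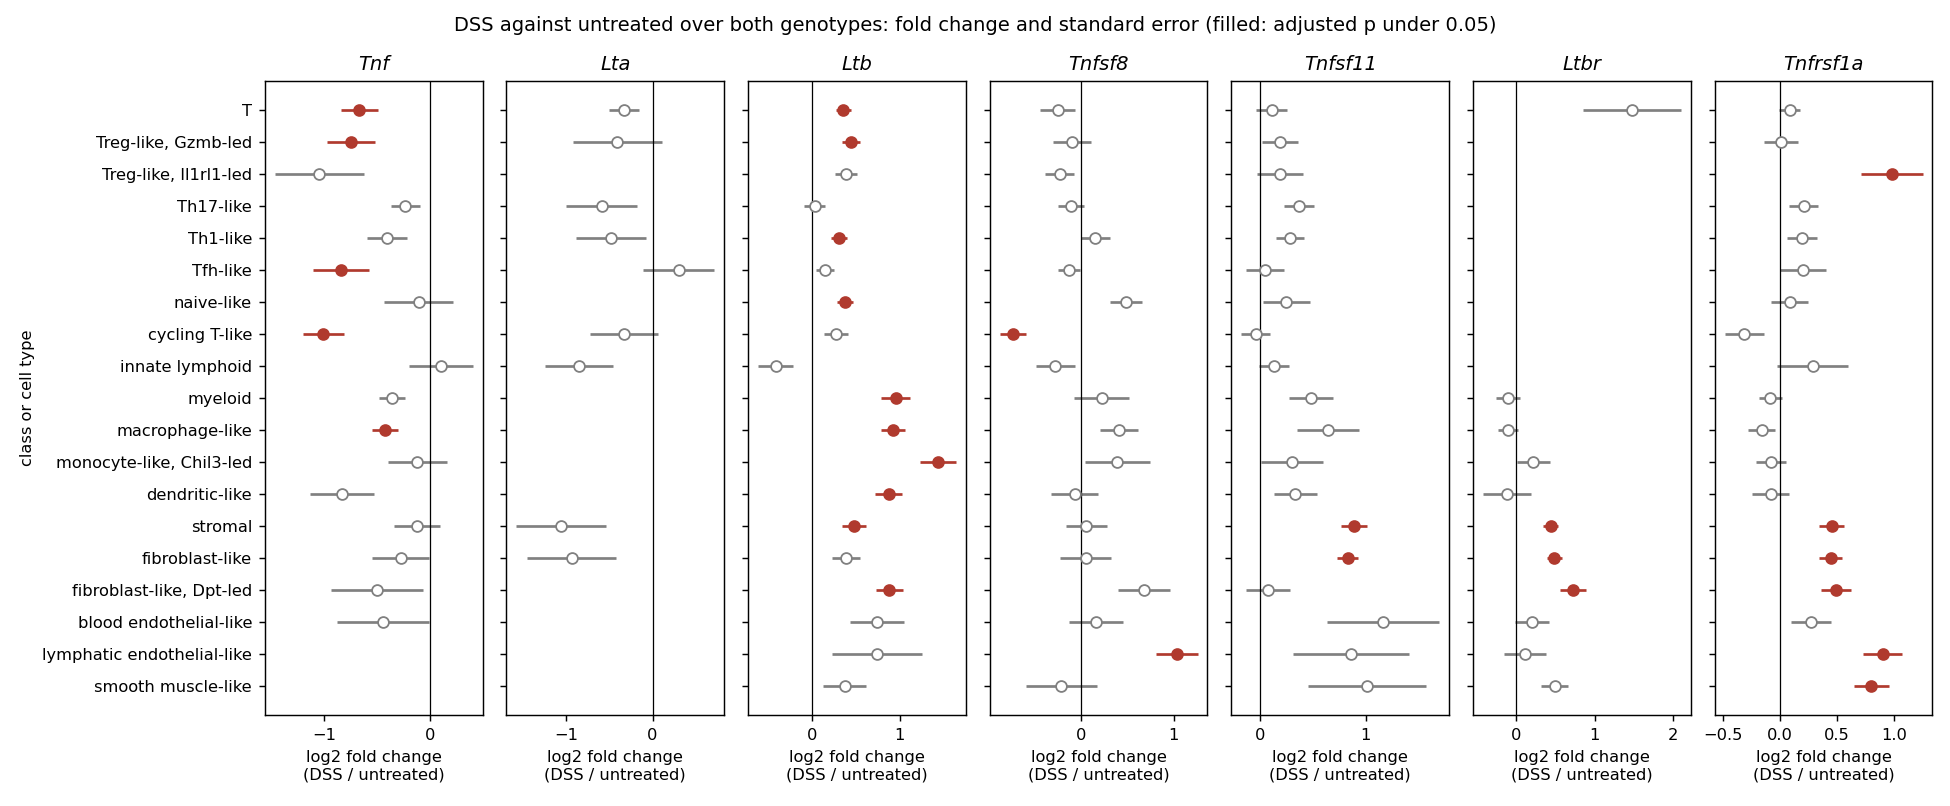
The log2 fold change of DSS over untreated (horizontal) with its standard error for each member in 4 classes and the finer types (rows), over 8 libraries; filled red points have an edgeR adjusted p under 0.05 and missing points were too low to test. Tnf points lie mostly below 0 among T types, Ltb points above 0 in myeloid types, and the 2 receptors above 0 in the stromal types tested.

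Tnf fell in the T class after DSS. Untreated libraries had 19.97 and 27.9 CPM in wildtype and 28.7 and 33.3 CPM in mutant mice, and DSS libraries had 19.9 and 15.2 CPM in wildtype and 22.9 and 14.7 CPM in mutant mice. The groups overlap through the first untreated wildtype and the first DSS mutant library. The log2 fold change was -0.67 ± 0.17 (SE, edgeR adjusted p = 0.0272). It was lost without any of 5 libraries, untreated wildtype 2, either untreated mutant, DSS wildtype 2 or DSS mutant 2 (edgeR adjusted p = 0.0553 to 0.121), on the authors' own cell list (0.0573) and with pair sums (0.0861). Macrophage markers in the T class rose from 206 to 436 CPM untreated to 385 to 658 CPM after DSS, which implies 1.11 to 2.15 and 3.23 to 4.15 CPM of Tnf from myeloid RNA.

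Among T types Tnf fell in cycling T-like, Tfh-like and Gzmb-led Treg-like barcodes. The make-up of the class also differed, and its part in the class value was not tested: Treg-like barcodes led by Il1rl1, which hold little Tnf (10.4 ± 5.1 CPM), numbered 210 to 315 per untreated and 645 to 954 per DSS library. In cycling T-like barcodes Tnf was 15.6, 25.7, 26.7 and 33.4 CPM untreated and 11.4, 11.7, 13.3 and 13.7 CPM after DSS, with no overlap. The log2 fold change there was -1.01 ± 0.20 (edgeR adjusted p = 0.00442, 14.5% of genes called), and the call held in each of 16 alternatives. Cycling T-like barcodes are grouped by cell-cycle genes, and a shift in the T subsets among them was not tested. The share of these barcodes with a Tnf UMI, thinned to 1000 UMIs, overlapped between the groups, at 1.04 to 3.17% untreated and 0.843 to 2.59% after DSS, while median depth per library was 4040 to 5615 and 4658 to 8710 UMIs. The mean thinned shares were 1.93% in wildtype and 2.10% in mutant mice untreated, and 1.72% and 2.09% after DSS. Unthinned, at the differing depths above, they were 8.36% and 12.6% untreated and 6.56% and 7.77% after DSS. The lower CPM after DSS was not clear in the thinned shares. With 198 to 466 barcodes per library, these rest on few positive barcodes. Tnf also fell in Tfh-like barcodes, by 0.84 ± 0.26 on the log2 scale (edgeR adjusted p = 0.0365, 14.6% of genes called), and in Gzmb-led Treg-like barcodes, by 0.75 ± 0.22 (edgeR adjusted p = 0.0355, 16% of genes called), whose groups did not overlap (13.5 to 18.9 against 7.25 to 10.9 CPM). The Tfh-like call was lost without untreated wildtype 2, either untreated mutant, DSS wildtype 2 or DSS mutant 2 (0.0572 to 0.278) and with pair sums (0.0881). The Treg-like call was lost without those 5 or untreated wildtype 1 (0.0571 to 0.140), with DESeq2 (0.184) and with pair sums (0.0733). In Th17-like barcodes, the T type richest in Tnf, edgeR and DESeq2 called 0 of 6 members (edgeR called 10.3% of genes). There 1 member, Tnfsf11, had an unadjusted p under 0.05. Tnf in Th17-like barcodes was 39.4 ± 1.7 CPM untreated and 34.2 ± 2.7 CPM after DSS, without overlap. Its log2 fold change of -0.23 ± 0.13 missed the threshold (edgeR adjusted p = 0.263).

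In the myeloid class Tnf was 59.8 to 74.7 CPM untreated and 46.6 to 66.8 CPM after DSS, and the change of -0.36 ± 0.13 on the log2 scale missed the threshold (edgeR adjusted p = 0.0626). Within macrophage-like barcodes it fell by 0.43 ± 0.12 on the log2 scale (edgeR adjusted p = 0.0243, 25.2% of genes called). There untreated libraries had 70.2, 87.9, 79.6 and 84.6 CPM and DSS libraries 70.6, 62.7, 64.5 and 74.7 CPM, overlapping through the first untreated wildtype library. Leaving out any of 5 libraries ended that call (untreated wildtype 2, either untreated mutant, DSS wildtype 2 or DSS mutant 1, edgeR adjusted p = 0.0527 to 0.117), as did leaving out the 8% of barcodes with the highest doublet scores (0.0859) and summing pairs (0.0725). Of the 4 clusters in this type, 1 led by C1qb, C1qa and Lyz2 went from 193, 263, 549 and 154 barcodes untreated to 31, 25, 33 and 32 after DSS. The myeloid class changed its content at the same time: macrophage or monocyte markers summed to 11860 to 16060 CPM untreated and 7394 to 7457 CPM after DSS, and the neutrophil genes S100a8 and S100a9 to 26.98 to 128 and 1075 to 4160 CPM. The part of these shifts in the Tnf values was not tested.

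Ltb rose in the T class. The values were 252, 265, 301 and 283 CPM untreated and 406, 356, 395 and 335 CPM after DSS, in the order wildtype 1 and 2, mutant 1 and 2, without overlap. The log2 fold change was 0.36 ± 0.09 (edgeR adjusted p = 0.0225), and it was lost without any of the 4 untreated libraries or DSS wildtype 1 (0.0545 to 0.0791) and with pair sums (0.0843). Gzmb-led Treg-like barcodes, the type with the most Ltb, numbered 448 to 792 per untreated and 1054 to 1418 per DSS library, and their part in the class value was not tested. Among T types Ltb rose in Gzmb-led Treg-like barcodes by 0.44 ± 0.10 (edgeR adjusted p = 0.0122), in naive-like barcodes by 0.37 ± 0.09 (adjusted p = 0.0110, 17.6% of genes called) and in Th1-like barcodes by 0.31 ± 0.09 (adjusted p = 0.0382, 19.7% of genes called). In Th17-like barcodes it was 0.03 ± 0.12 (edgeR adjusted p = 0.894). The Th1-like call was lost with DESeq2 (adjusted p = 0.0550) without any library except DSS wildtype 2 (0.0723 to 0.138) and with pair sums (0.104), the Treg-like call without untreated wildtype 2 (0.0671), untreated mutant 1 (0.0510) or 2 (0.0672), and the naive-like call without untreated wildtype 1 (0.0517) or untreated mutant 1 (0.0699) and with pair sums (0.0543).

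Ltb was also called outside lymphocytes, and each call was set beside T marker RNA. In the myeloid class Ltb was 33.7, 31.2, 36.9 and 49.2 CPM untreated and 110, 66.9, 74.0 and 69.0 CPM after DSS, 0.96 ± 0.16 on the log2 scale (edgeR adjusted p = 0.00465) that was called in all 8 leave-one-out fits. T markers in these barcodes summed to 223 to 345 CPM untreated and 332 to 550 CPM after DSS, and the Ltb implied by them was 25.5 to 38.2 and 55.0 to 101 CPM. What remained after subtracting the implied level was -0.154 to 11.4 CPM untreated and 3.28 to 11.9 CPM after DSS, which overlap. Ltb was also called in macrophage-like (0.93 ± 0.14, edgeR adjusted p = 0.00185), monocyte-like (1.44 ± 0.21, adjusted p = 0.000766, 17.1% of genes called) and dendritic-like barcodes (0.87 ± 0.16, adjusted p = 0.00273, 15.3% of genes called). Without the 8% highest doublet scores the monocyte-like value was 0.80 (edgeR adjusted p = 0.151). Macrophage-like libraries exceeded the implied level in 5 of 8, with remainders of -0.926 to 5.14 CPM untreated and -10.3 to 6.28 CPM after DSS. Monocyte-like libraries exceeded it in 6 of 8 (-11.5 to 7.92 CPM untreated and 4.28 to 24.95 CPM after DSS). Dendritic-like libraries exceeded it in 8 of 8 (0.477 to 37.5 CPM untreated and 4.99 to 27.5 CPM after DSS). In each of these types the remainders of untreated and DSS libraries overlap. Dpt-led fibroblasts passed too (0.88 ± 0.15, edgeR adjusted p = 0.00132, 18.1% of genes called), with T markers at 226 to 416 CPM untreated and 406 to 584 CPM after DSS and Ltb above the implied level in 3 of 8 libraries. In the stromal class Ltb was 38.6, 37.7, 32.3 and 40.3 CPM untreated and 55.4, 35.2, 63.7 and 50.1 CPM after DSS (0.48 ± 0.13, edgeR adjusted p = 0.0497), below the implied level in each DSS library. Stromal T markers were at 257 to 383 CPM untreated and 256 to 389 CPM after DSS. The stromal call was lost in all leave-one-out fits but the one without DSS wildtype 2 (0.0758 to 0.173), with classes from finer clusters (0.0507), with pair sums (0.123) and with the random block (limma adjusted p = 0.0919).

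Lta passed in no class or finer type. In innate lymphoid barcodes it was 16.8, 41.5, 73.9 and 26.8 CPM untreated and 18.3, 46.0, 20.9 and 12.0 CPM after DSS, from 7 to 37 UMIs per library, and the groups overlap (log2 fold change -0.85 ± 0.40, edgeR adjusted p = 0.293). The highest value belongs to the first untreated mutant library, which also had the highest Ltb of the class, 571 CPM against 216 to 350 CPM in the others, and the highest Hspa1a and Hspa1b sum, 5611 CPM against 146 to 1571 CPM. Without that library the Lta value was -0.36 (edgeR adjusted p = 0.776). Innate lymphoid Ltb went from 231 to 571 CPM untreated to 216 to 350 CPM after DSS (-0.41 ± 0.20, edgeR adjusted p = 0.312).

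Tnfsf8 changed in few places. In the T class it was 445 to 698 CPM untreated and 400 to 586 CPM after DSS (-0.26 ± 0.19, edgeR adjusted p = 0.345). In cycling T-like barcodes it fell from 346, 451, 329 and 391 CPM to 260, 176, 291 and 201 CPM, without overlap. That is -0.74 ± 0.14 (edgeR adjusted p = 0.00425), called in each of 16 alternatives, with a shift in the T subsets of this type not tested. In lymphatic endothelial-like barcodes it was 1.03 ± 0.23 (edgeR adjusted p = 0.0418, 1.60% of genes called) from 44 to 209 barcodes per library, a call lost with DESeq2 (adjusted p = 0.122), with pair sums (0.135), with the random block (limma, 0.0505) and without any library except DSS mutant 2 (0.0670 to 0.242). Its level there was 28.3 to 53.4 CPM untreated and 58.97 to 113 CPM after DSS, with T markers at 98.5 to 220 and 98.3 to 304 CPM. The level above that implied by T RNA was 0.275 to 11.6 CPM untreated and 9.66 to 75.3 CPM after DSS, which overlap.

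Tnfsf11 rose in the stroma. Stromal libraries had 29.2, 29.9, 17.1 and 20.4 CPM untreated and 33.7, 41.4, 48.4 and 44.0 CPM after DSS, with every DSS library above every untreated one. The log2 fold change was 0.89 ± 0.12 (edgeR adjusted p = 0.00669), and it was called in each of 17 alternatives (0.76 to 1.46). The level above that implied by T RNA was 9.67 to 14.5 CPM untreated and 20.1 to 29.1 CPM after DSS. All fibroblast-like barcodes together gave 37.9, 35.2, 24.8 and 27.2 CPM untreated and 48.1, 47.8, 59.9 and 53.1 CPM after DSS (0.83 ± 0.10, edgeR adjusted p = 0.00124, 20.2% of genes called).

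The fibroblast types themselves shifted with DSS. Ereg-led fibroblasts, in which Igfbp5 ranked above Ereg, numbered 2 to 15 barcodes per untreated and 55 to 668 per DSS library. In the DSS libraries they held 93.0, 60.3, 109 and 66.7 CPM of Tnfsf11. Adamdec1-led fibroblasts went from 541 to 1083 barcodes to 13 to 169, and Ogn-led ones from 310 to 521 to 32 to 127. In Dpt-led fibroblasts, present with 112 to 344 barcodes in every library, Tnfsf11 was 56.6, 37.5, 21.3 and 40.3 CPM untreated and 35.7, 39.1, 39.1 and 38.6 CPM after DSS. The value there was 0.08 ± 0.21 (edgeR adjusted p = 0.840), and in Ogn-led fibroblasts, where the smallest library had 32 barcodes, 0.30 ± 0.23 (adjusted p = 0.617). In the T class Tnfsf11 was 75.9 to 110 CPM untreated and 82.2 to 137 CPM after DSS (0.11 ± 0.14, edgeR adjusted p = 0.600), and in innate lymphoid barcodes 513 to 722 and 625 to 873 CPM (0.13 ± 0.14, adjusted p = 0.696). ILC3-like barcodes from the finer clusters gave 0 of 6 members called by DESeq2 and by edgeR (2.48% of genes), and 1 had an unadjusted p under 0.05.

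Ltbr, the lymphotoxin receptor gene, rose in the stroma. Its values were 49.6, 47.9, 52.2 and 57.1 CPM untreated and 67.2, 73.7, 67.1 and 60.8 CPM after DSS, without overlap (0.44 ± 0.10, edgeR adjusted p = 0.0299). In Dpt-led fibroblasts it was 28.9, 34.4, 44.9 and 34.6 CPM untreated and 54.1, 65.6, 60.5 and 51.4 CPM after DSS (0.72 ± 0.17, edgeR adjusted p = 0.00871). All fibroblasts together gave 0.48 ± 0.10 (edgeR adjusted p = 0.0111), lost without any untreated library or DSS wildtype 2 (0.0512 to 0.0727) and with pair sums (0.0568). In blood and lymphatic endothelial-like barcodes the values were 0.20 ± 0.22 and 0.11 ± 0.27 (edgeR adjusted p = 0.658 and 0.885). Smooth muscle-like libraries went from 47.4 to 54.2 CPM to 68.2 to 88.9 CPM without overlap, but 0.49 ± 0.17 missed the threshold (edgeR adjusted p = 0.147). The stromal call was lost without any of the 4 untreated libraries, DSS wildtype 2 or DSS mutant 2 (0.0695 to 0.128), with pair sums (0.103) and with the random block (limma, 0.0614), and the Dpt-led call with DESeq2 (0.0724) and without DSS wildtype 2 (0.0515). Myeloid Ltbr was 28.95 to 44.9 CPM untreated and 32.8 to 49.4 CPM after DSS (-0.11 ± 0.15, edgeR adjusted p = 0.624).

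Tnfrsf1a, the gene of TNF receptor 1, rose beside it. Stromal libraries had 136, 130, 129 and 148 CPM untreated and 183, 198, 178 and 156 CPM after DSS, without overlap (0.45 ± 0.11, edgeR adjusted p = 0.0318). The rise was seen in Dpt-led fibroblasts (0.49 ± 0.13, edgeR adjusted p = 0.0190), in lymphatic endothelial-like barcodes (0.90 ± 0.17, adjusted p = 0.0203) and in smooth muscle-like barcodes (0.80 ± 0.16, adjusted p = 0.0309, 3.08% of genes called). Lymphatic libraries had 75.7, 96.1, 74.6 and 94.6 CPM untreated and 160, 160, 161 and 165 CPM after DSS. Smooth muscle-like libraries had 114, 114, 88.1 and 120 CPM untreated and 185, 206, 195 and 223 CPM after DSS, again without overlap. In blood endothelial-like barcodes, the type highest in Tnfrsf1a, it was 0.27 ± 0.17 (edgeR adjusted p = 0.417). Igfbp5-led and Adamdec1-led fibroblasts had too few barcodes in a DSS library to be tested (10 and 13 in the smallest). Igfbp5-led means of Tnfrsf1a were lower after DSS, 149 CPM in untreated wildtype and 157 CPM in untreated mutant mice against 137 and 117 CPM. Adamdec1-led means were higher after DSS, 124 and 136 CPM against 195 and 146 CPM in the same order. The stromal call was lost without the same 6 libraries as that of Ltbr (0.0702 to 0.138), with pair sums (0.102) and with the random block (limma, 0.0689). The Dpt-led call was lost with DESeq2 (0.0700), with pair sums (0.0508) and without untreated wildtype 2, either untreated mutant or DSS wildtype 2 (0.0639 to 0.0940). The lymphatic call was lost without either untreated mutant, either DSS wildtype or DSS mutant 2 (0.0520 to 0.171) and with pair sums (0.0967), and the smooth muscle call without either untreated wildtype, untreated mutant 1, either DSS wildtype or DSS mutant 2 (0.0590 to 0.162) and with pair sums (0.135). Il1rl1-led Treg-like barcodes also passed for Tnfrsf1a, with 17.8, 18.3, 14.5 and 5.89 CPM untreated and 26.6, 36.9, 24.7 and 26.5 CPM after DSS (0.98 ± 0.27, edgeR adjusted p = 0.0355, 8.20% of genes called), lost without any untreated library, DSS wildtype 2 or DSS mutant 2 (0.0555 to 0.167), without the 8% highest doublet scores (0.0784), with pair sums (0.0891) and in limma with and without the block (0.133 and 0.0871). Macrophage markers in these barcodes went from 206 to 501 CPM untreated to 399.5 to 747 CPM after DSS, and the Tnfrsf1a they imply from 2.53 to 6.24 to 7.53 to 15.9 CPM. The level above the implied one was 3.36 to 15.1 CPM untreated and 12.1 to 20.99 CPM after DSS, which overlap. The whole T class was 31.8 to 34.7 CPM untreated and 32.8 to 41.9 CPM after DSS (0.08 ± 0.09, edgeR adjusted p = 0.527), and the myeloid class 132 to 151 and 140 to 158 CPM (-0.08 ± 0.10, adjusted p = 0.578).

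**Figure D5:**
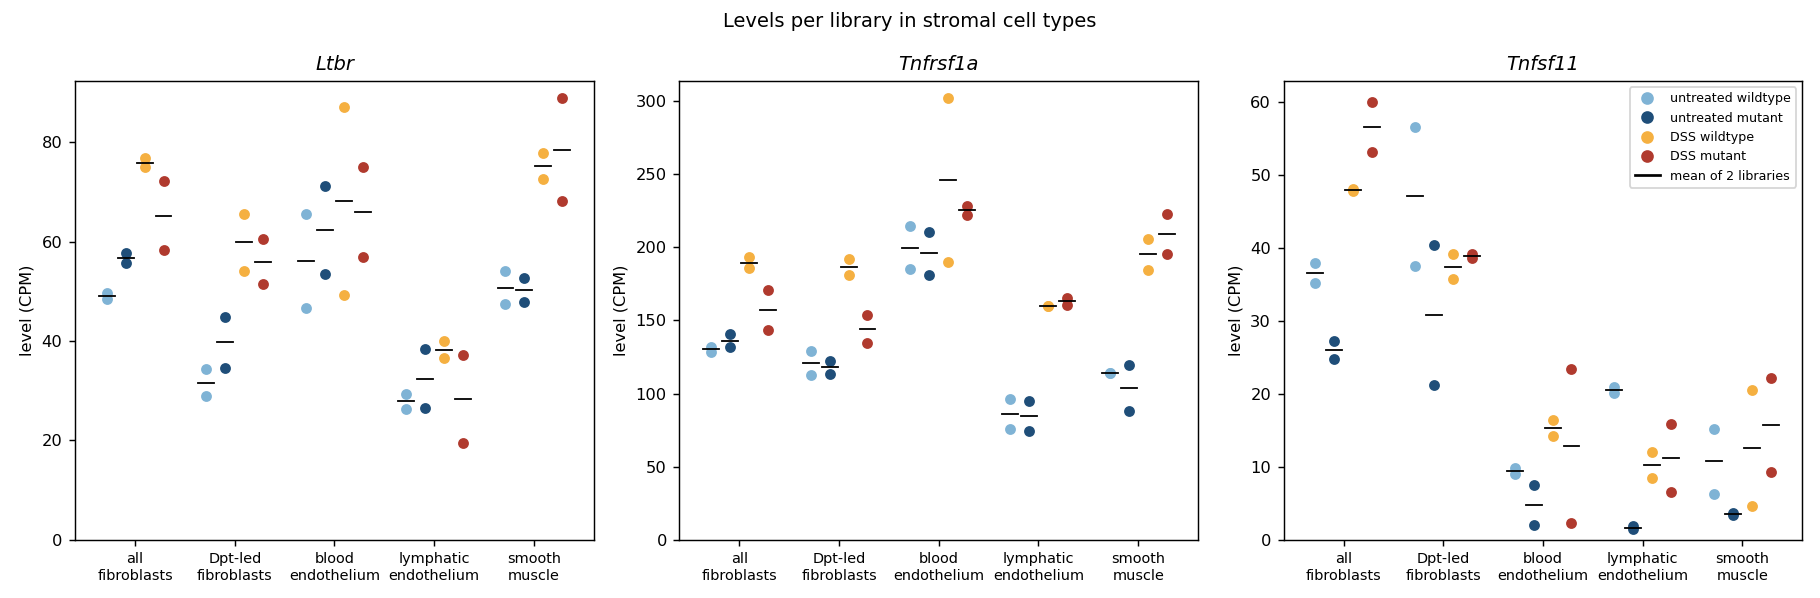
Levels of Ltbr, Tnfrsf1a and Tnfsf11 in CPM (vertical axes, from 0) in 5 stromal populations; each point is 1 library, coloured by group, and each line is the mean of 2 libraries. Tnfrsf1a of lymphatic and smooth muscle-like barcodes separates DSS from untreated libraries, and Tnfsf11 separates them in all fibroblasts but not in Dpt-led ones.

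Within 1 genotype, 2 libraries stood against 2. In wildtype mice the myeloid class gave 1 of 6 members, Ltb (1.33 ± 0.23, edgeR adjusted p = 0.0308, 1.17% of genes called), a call lost without either untreated wildtype library or DSS wildtype 1 (0.120 to 0.302) and without the 8% highest doublet scores (0.114). EdgeR called 0 of 7 in the T class (0.103% of genes called), 0 of 7 in the stromal class (1%) and 0 of 6 in the innate lymphoid class (0.0683%), with 1, 4 and 0 members at an unadjusted p under 0.05 and 1, 0 and 0 called by DESeq2. In mutant mice the stromal class gave 1 of 7, Tnfsf11 (1.38 ± 0.18, edgeR adjusted p = 0.0157, 3.56% of genes called), from 17.1 and 20.4 CPM untreated to 48.4 and 44.0 CPM after DSS. That call was lost without either untreated mutant library or DSS mutant 2 (0.0629 to 0.181). EdgeR called 0 of 7 in the T class (8.16% of genes called), 0 of 6 in the myeloid class (11%) and 0 of 6 in the innate lymphoid class (0.564%) of mutant mice, with 2, 3 and 2 at an unadjusted p under 0.05 and 1, 0 and 0 called by DESeq2. Without the second untreated mutant library, innate lymphoid Lta (-2.34, edgeR adjusted p = 0.0421) and Ltb (-1.30, 0.0339) passed in mutant mice, and without the first, which stands apart, they were -0.82 and -0.31 (0.776 and 0.802). Each of these fits leaves 1 untreated mutant library, which is assumed to vary like the other groups.

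The mutant and wildtype were compared in untreated mice and after DSS. No member passed in any class. In untreated mice edgeR called 0 of 7 members in the T class (0% of genes called), 0 of 6 in the innate lymphoid (0.188%), 0 of 6 in the myeloid (0%) and 0 of 7 in the stromal class (0%). Members at an unadjusted p under 0.05 numbered 1, 1, 0 and 1, and DESeq2 called 0 members in each. The lowest was Tnfsf11 in the stroma, with 29.2 and 29.9 CPM in wildtype and 17.1 and 20.4 CPM in mutant libraries (-0.73 ± 0.18, edgeR adjusted p = 0.901). With no filter on low counts that value passed (-0.74, edgeR adjusted p = 0.0165). T class Lta was 3.29 and 4.63 CPM in wildtype and 5.74 and 7.12 CPM in mutant libraries (0.70 ± 0.25, edgeR adjusted p = 0.846). Innate lymphoid Ltb was 231 and 295 CPM in wildtype and 571 and 300 CPM in mutant libraries (0.78 ± 0.28, edgeR adjusted p = 0.824).

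After DSS, edgeR and DESeq2 called 0 members in all 4 classes (0% of genes called by edgeR in each), and none had an unadjusted p under 0.05. Stromal Tnfsf11 was 33.7 and 41.4 CPM in wildtype and 48.4 and 44.0 CPM in mutant libraries. The difference between the DSS effects of the genotypes was tested as well. EdgeR and DESeq2 called 0 members in the T (0% of genes called by edgeR), innate lymphoid (0.0171%), myeloid (0%) and stromal class (0%), with 0, 2, 1 and 1 at an unadjusted p under 0.05. For stromal Tnfsf11 that difference was 0.97 ± 0.25 (edgeR adjusted p = 0.620, and 0.0262 with no filter on low counts), and for myeloid Ltb -0.75 ± 0.33 (adjusted p = 0.990). With 2 libraries a group, these values do not show that the genotypes were alike.

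Another 37 genes of the pathway were listed by role: ligand Tnfsf14, receptors, adaptors and kinases, shedding and mRNA control, and response genes. After DSS over both genotypes, edgeR called 10 higher and 1 lower of 34 tested in the T class, where 23.2% of all genes were called (median log2 fold change 0.12 against 0.01 over all genes). The counts were 4 and 1 of 24 in the innate lymphoid class (2.46% of genes called, 0.22 against 0.0065), 11 and 3 of 34 in the myeloid class (22.1%, 0.14 against -0.00055) and 9 and 0 of 37 in the stromal class (14.1%, 0.23 against 0.00052). With pair sums edgeR called 7 and 0, 1 and 0, 6 and 1, and 2 and 0 in that order, and limma with the random block 6 and 1, 4 and 1, 7 and 2, and 6 and 0. In the stroma the 2 left with pair sums were Tnfrsf1b (edgeR adjusted p = 0.0418) and Ccl2 (0.0491). Tnfrsf1b, which encodes TNF receptor 2, rose in all 4: by 0.85 ± 0.12 in T, 0.77 ± 0.18 in innate lymphoid, 0.99 ± 0.13 in myeloid and 1.03 ± 0.12 in stromal barcodes. Zfp36, whose protein tristetraprolin marks Tnf mRNA for decay, rose in all 4 as well, by 0.60 ± 0.11, 0.92 ± 0.22, 0.61 ± 0.14 and 0.65 ± 0.15 in that order. The stromal Zfp36 call was lost with pair sums. In innate lymphoid barcodes pair sums called 1 pathway gene, so Tnfrsf1b and Zfp36 were not both called there. Tnfrsf8, which encodes CD30, the receptor of the Tnfsf8 product, rose by 1.39 ± 0.26 in T and 0.94 ± 0.29 in myeloid barcodes. Myeloid Tnfrsf8 was 0.957 to 1.515 CPM untreated and 2.08 to 3.02 CPM after DSS, and the level implied by T marker RNA was 0.182 to 0.458 and 1.12 to 2.26 CPM, so that the remainders (0.690 to 1.18 and 0.254 to 1.89 CPM) overlap.

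Of 14 response genes tested in the stroma 4 rose: Cxcl13, a chemokine that draws B cells, by 3.70 ± 0.54, Ccl2, which draws monocytes, by 1.88 ± 0.26, the adhesion gene Vcam1 by 1.34 ± 0.27 and Tnfaip3, an NF-kB feedback inhibitor, by 0.96 ± 0.18. With pair sums only Ccl2 of these 4 stayed called, and the share of all stromal genes called is given above. Rhbdf2, a partner of the TNF sheddase, rose by 0.79 ± 0.14, a call lost with pair sums. The Ereg-led fibroblasts, few in untreated libraries, held 0 to 0.221% of stromal Cxcl13 UMIs untreated and 64.97 to 75.3% after DSS. In fibroblast types present in every library Cxcl13 also passed, at 1.98 ± 0.61 in Dpt-led (edgeR adjusted p = 0.0389, lost with pair sums at 0.0516 and with the random block at 0.104) and 2.80 ± 0.18 in Ogn-led ones (edgeR adjusted p = 1.6e-05). Dpt-led libraries overlapped, at 3.46 to 71.9 CPM untreated and 40.2 to 389 CPM after DSS. Ereg-led fibroblasts held 2854 to 4875 CPM of Cxcl13 after DSS, and carry-over of their RNA into these types was not tested. In the myeloid class Cxcl13 (1.55 ± 0.47), Vcam1 (1.25 ± 0.21), Birc2 (0.82 ± 0.15) and Tnfaip3 (0.81 ± 0.15) rose, and Ccl2 fell by 0.69 ± 0.16, as did Icam1 and Nfkbie. In the T class Cxcl13 (3.55 ± 0.62), Vcam1 (2.58 ± 0.36) and Ccl2 (1.76 ± 0.34) also passed, and the signalling adaptor Traf1 fell by 0.43 ± 0.12. T class Vcam1 was 4.95 to 10.7 CPM untreated and 21.6 to 77.8 CPM after DSS, and the level implied by macrophage marker RNA was 5.14 to 15.6 and 35.7 to 80.7 CPM, exceeded in 2 of 8 libraries. T class Ccl2 and Cxcl13 were above the level implied by macrophage RNA in 8 of 8 libraries, after DSS at 5.17 to 16.2 against 2.74 to 5.37 CPM and at 3.63 to 29.9 against 2.03 to 9.99 CPM. Innate lymphoid Vcam1 passed (2.55 ± 0.53), at 1.87 to 9.22 CPM untreated and 15.7 to 51.8 CPM after DSS, against 4.65 to 10.9 and 21.8 to 47.2 CPM implied by macrophage RNA, exceeded in 3 of 8 libraries. Innate lymphoid barcodes also passed for Zfp36l1 (0.52 ± 0.13) and, downward, Traf1 (-0.69 ± 0.17). Pair sums called 0 pathway genes lower in T and innate lymphoid barcodes, so both Traf1 calls were lost. They called 1 higher in innate lymphoid barcodes, so Vcam1 and Zfp36l1 were not both called there. In myeloid barcodes they called 1 lower, so Ccl2, Icam1 and Nfkbie were not all called. In the genotype contrasts edgeR called 0 of the 34, 24, 34 and 37 pathway genes tested in T, innate lymphoid, myeloid and stromal barcodes. Over all genes in untreated mice, counts at an unadjusted edgeR p under 0.05 were 720, 313, 526 and 542 in that order. DESeq2 called 32, 2, 5 and 15 genes there. Some genes fall under that unadjusted p with no difference, so the counts by themselves do not show a genotype effect.

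Genes with the most similar pattern over the 26 finer types were taken by Pearson's r of log2(CPM + 1), as a description over types that share libraries. Tnf was nearest to Zswim4 (r = 0.896), Myo1f (0.879) and Rnf149 (0.877), and Lta to Apol7e (0.881), Xlr4a (0.874) and Xlr4b (0.852). Ltb was nearest to Gm26740 (0.967), Chd2 (0.947) and Vps37b (0.947). Tnfsf8 was nearest to Sh2d2a (0.950), an adaptor of T cells, Ppp1cc (0.943) and Trbc1 (0.943), and Tnfsf11 to Il2rb (0.926), Ern1 (0.921) and Rora (0.908). Ltbr was nearest to Plxnb2 (0.964), Tceal8 (0.963) and Fcgrt (0.949), and Tnfrsf1a to Klhl5 (0.872), Tbc1d2b (0.863) and Tcn2 (0.860).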

How the data were processed

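The authors deposited UMI counts per gene and barcode for 8 libraries of 3' droplet RNA. The submitters' processing notes name Cell Ranger 3.1.0, Seurat 4.0.1 and mm10. Barcodes with at least 300 genes and at most 20% mitochondrial UMIs were kept. They were clustered with scanpy 1.11.5 on 1778 variable genes that held no member, with 30 components and 15 neighbours, at Leiden resolution 1 for classes and 2 for finer types, and named from marker lists. No barcode was removed as a doublet in the reported values. UMIs were summed per library and population and tested with edgeR 4.0.16 (quasi-likelihood, TMM, filterByExpr, Benjamini-Hochberg over all genes), in 1 fit over the 8 libraries, with DESeq2 1.42.0 and limma 3.58.1 as alternatives. The p-values measure the spread between 2 libraries per group, and where leaving 1 out leaves a lone library, it is assumed to vary like the other groups. The code was tested on simulated data. Finer types were tested where every library had at least 20 barcodes. Members and lists were chosen with earlier results of these data known. All 7 members are named, with up to 6 called pathway genes per class by the largest log2 fold change, and for each member the 3 genes most alike by Pearson's r, among genes at 5 CPM or more in a type. Zfp36 in myeloid and stromal, Traf1 in T, and Ccl2, Icam1 and Nfkbie in myeloid barcodes were named after their values were seen.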

Additional observations from a re-analysis of the deposited data

How the results depend on the processing

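In 4168 comparisons of a member value with an alternative, no value called in either fit changed sign. Of these, 3976 kept their side of the threshold, 136 lost the call and 56 gained it. Most member values were not called in the main fit, so keeping their side mostly meant staying uncalled. The 136 losses fell only on values that were called. Sign changes of values called in neither fit were not counted. The groups share no replicate numbers, but wildtype and mutant titles carry neighbouring numbers, whose meaning no label gives. Deviations from the group means of libraries so paired correlated at 0.194 to 0.551 in T, myeloid and stromal barcodes and at -0.007 and 0.003 in innate lymphoid ones. A replicate block on these 4 sets, chosen after seeing the data, called 0 of 78 member values for the genotypes and the difference of the DSS effects (edgeR, lowest adjusted p = 0.0709, 16 at an unadjusted p under 0.05). For DSS over both genotypes, sums per set (2 against 2) called 0 members in T and 1 in stromal barcodes, and limma with the set as a random replicate block called 1 in stromal barcodes, where its estimated correlation was 0.342. Sums per set leave fewer samples. Within 1 genotype no set holds more than 1 library. The planned doublet caller was not run as an alternative, since its automatic threshold marked 1 of 98728 barcodes, and leaving out the 8% with the highest doublet scores, chosen after seeing the data, replaced it.

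With DESeq2 the members called numbered 1 in T barcodes of wildtype mice, 1 in T barcodes of mutant mice and 2 in stromal barcodes of mutant mice. With no filter on low counts they numbered 2 and 4 in T barcodes of wildtype and mutant mice, 2 in innate lymphoid and 2 in myeloid barcodes of mutant mice, 3 in myeloid barcodes over both genotypes, 1 and 3 in stromal barcodes of wildtype and mutant mice, 1 in stromal barcodes for the genotypes in untreated mice (Tnfsf11) and 2 for the difference of the DSS effects there (Tnfsf11 and Tnfsf8). On the authors' cell list 1 was called in T barcodes over both genotypes. Without the 8% highest doublet scores 0 were called in myeloid barcodes of wildtype and 2 in stromal barcodes of mutant mice. The cause was not tested.

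Leaving out 1 library at a time gave, over both genotypes, 0 to 2 members called in T, 0 to 1 in innate lymphoid, 1 to 2 in myeloid and 1 to 3 in stromal barcodes. In mutant mice it gave 0 to 1, 0 to 2, 0 to 0 and 0 to 2 in that order, and in wildtype mice 0 to 1 in myeloid and 0 to 0 in the other classes. For the genotypes and the difference of the DSS effects it gave 0 to 0. Counts were low for Lta (1034 UMIs in all) and for Ltbr in innate lymphoid (9 UMIs) and T barcodes (109 UMIs).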
